A study of Homo sapiens with 60 samples.

Results

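Thrombomodulin, tissue factor and their regulators were followed as 8 genes in SW1783, an established human astrocytoma cell line: THBD, PROCR, F3, TFPI, TFPI2, KLF2, KLF4 and KLF6. The 8 were chosen by symbol from the 60675 genes of the count table. Earlier results of the same libraries were in view, among them the difference of THBD between the doses of 1 formula, Sagunja-tang. That value and the other values of the Sagunja-tang dose comparison are therefore given as a description with no test, and the other tests are not independent evidence for the genes. All 8 were among the 17676 genes that passed the filter on low counts and were tested. RNA was sequenced 24 h after the cells received ethanol extracts of herbs or their DMSO vehicle, in 60 libraries. Vehicle libraries numbered 3. Astragali Radix (astragalus root), Cinnamomi Cortex (cinnamon bark) and the formulas Palmul-tang, Sibjeondaebo-tang, Sagunja-tang and Samul-tang each had 3 doses with 3 libraries, and Rehmanniae Radix Preparata (prepared rehmannia root) had 1 library at each of 3 doses. The high, medium and low doses were 500, 100 and 20 µg/mL, except that those of Astragali Radix were 220, 44 and 8.8 µg/mL. The series text sets the highest dose at the IC20, a concentration that inhibits cells in part, for extracts where it lies below 500 µg/mL, so the doses of Astragali Radix are not matched to the others. In the traditional recipes, the herbs of Sagunja-tang and those of Samul-tang together make Palmul-tang. Palmul-tang with astragalus root and cinnamon bark makes Sibjeondaebo-tang.

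Tissue factor, encoded by F3, is the membrane receptor that binds factor VII and starts clotting, and it is abundant in astrocytes, where it seals vessels after injury. TFPI checks this pathway by blocking the complex of tissue factor and factor VII together with factor X, and TFPI2 is a related inhibitor that acts mainly on plasmin and other matrix-degrading proteases. Thrombomodulin, encoded by THBD, turns thrombin from a clotting enzyme into the activator of protein C, and PROCR encodes the receptor that presents protein C to that complex. The zinc finger factors KLF2 and KLF4 are known in endothelium to raise THBD and to restrain F3 and inflammatory genes, and in that tissue ERK5 and MEF2 factors act upstream of them. KLF6 is a broadly expressed relative induced by injury, and KLF factors bind CACCC and GC boxes.

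Start-site windows show which of these boxes are written beside the genes. RefSeq (GRCh38.p14) gave a window of 300 bases, 250 before and 50 after the start, for 7 of the 8 genes, THBD having no entry. For TFPI (chr2:187554386-187554685) and KLF4 (chr9:107489720-107490019), on the minus strand, the window lies wholly inside the GENCODE 29 gene. Those genes start at 187565760 and 107490482, so their windows are not upstream of that start. Both strands were searched for the CACCC box, the GC box GGGCGG, the AP-1 element TGANTCA, the antioxidant element TGACNNNGC and the MEF2 element, and overlapping matches were counted. These matches describe letters and not binding. GGGCGG was found 4 times in F3, 2 times in TFPI2, 2 times in PROCR, 6 times in KLF2, 4 times in KLF4, 2 times in KLF6 and 0 times in TFPI, and 45.0% of all 35116 windows held it. CACCC was found 3 times each in F3 and TFPI2 and in none of the other 5 windows, against 59.9% of all windows. TGANTCA was found 2 times in F3 and 1 time in TFPI2 (7.7% of all windows), and TGACNNNGC in none of the 7 (13.3%). KLF2 held 1 MEF2 element (0.6%). The part of the window that lies before both the RefSeq start and the start of the gene in GENCODE 29 is printed, which leaves 209 bases for F3, 241 for KLF2 and 178 for KLF6. These are shown for F3, the gene that went against the others at the highest Astragali Radix dose, for KLF2, which holds the MEF2 element, and for KLF6, the most abundant per length of the 3 KLF genes. All are 5′ to 3′ on the gene's strand, with every match to a searched motif in capitals on either strand. In F3 (chr1:94541801-94542009, minus strand) the capitals mark 2 CACCC boxes (read as GGGTG), 4 GC boxes and 2 AP-1 elements, 1 CACCC box overlapping 1 AP-1 element. In KLF2 (chr19:16324576-16324816, plus strand) they mark 4 GC boxes and the MEF2 element, and in KLF6 (chr10:3785282-3785459, minus strand) 1 GC box.
F3: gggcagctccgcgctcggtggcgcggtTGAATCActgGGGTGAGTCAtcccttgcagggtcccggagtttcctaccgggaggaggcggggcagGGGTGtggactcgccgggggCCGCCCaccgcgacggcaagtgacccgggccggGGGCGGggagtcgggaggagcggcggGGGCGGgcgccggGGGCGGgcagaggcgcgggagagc
KLF2: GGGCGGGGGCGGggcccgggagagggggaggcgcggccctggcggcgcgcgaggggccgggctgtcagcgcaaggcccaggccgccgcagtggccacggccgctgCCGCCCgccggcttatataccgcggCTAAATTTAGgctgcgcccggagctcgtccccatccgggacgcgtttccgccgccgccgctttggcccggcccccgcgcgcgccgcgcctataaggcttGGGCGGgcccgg
KLF6: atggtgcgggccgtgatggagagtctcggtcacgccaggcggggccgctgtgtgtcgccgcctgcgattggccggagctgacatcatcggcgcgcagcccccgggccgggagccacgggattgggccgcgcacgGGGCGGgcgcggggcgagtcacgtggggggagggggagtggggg

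The libraries held 19793387 to 37152410 expected counts, those of the vehicle 24212214 to 26167537. Levels are CPM, counts scaled to a common library total after normalisation, and differences are log2 ratios ± SE with n = 3 libraries per group. A gene is called changed where the Benjamini-Hochberg adjusted p of edgeR's quasi-likelihood test over all 17676 genes is below 0.05. Whether replicates were separate cultures is not in the labels, and each p therefore reflects only how far these libraries spread. The titles of vehicle and extract libraries alike begin with BatchF, and what that batch covers is not stated. Vehicle libraries carry a label code that no extract library shares, so extract and code cannot be told apart in any comparison with the vehicle. Extract libraries share the first part of that code in pairs, Astragali Radix with Cinnamomi Cortex, Sagunja-tang with Samul-tang, and Palmul-tang with Sibjeondaebo-tang. The same limit holds where Palmul-tang is compared with Sagunja-tang or Samul-tang, or Cinnamomi Cortex with a formula, while dose trends and comparisons inside a pair do not cross the code. Replicates 1 and 2 of the low dose of Astragali Radix stood apart: 14.1% and 32.0% of the variance of their deviation from the vehicle went with transcript length and GC content, against at most 3.65% in any other library. They enter the fit and its spread. Without them 33 tests of members that were not called became called and 1 call was lost, and these are given with each gene below. Of the glial markers, AQP4 was at 0 in the vehicle and GFAP (0.124 CPM), S100B (0.0945 CPM), ALDH1L1 and SOX2 were near 0, while VIM (5528 CPM), SOX9 (81.8 CPM) and SLC1A3 (22.5 CPM) were present. The 9 endothelial markers summed to 30.9 to 35.6 CPM in the vehicle and 21.9 to 40.9 CPM over all libraries, nearly all of it KDR (28.9 CPM in the vehicle). The defining markers CDH5 (0.0138 CPM), VWF (0.0538 CPM), CLDN5 and ERG were near 0. The 4 myeloid markers summed to 11.7 to 12.2 CPM in the vehicle (8.73 to 15.7 over all libraries) and the 4 platelet markers to 0.289 to 0.474 CPM (0.251 to 0.937). The part of these cell markers in the results was not tested.

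In the vehicle, tissue factor was the most abundant of the 8 transcripts and thrombomodulin among the least. Per kilobase of transcript, F3 stood at 66.1 CPM (65.9 to 66.2), PROCR at 42.8 (40.4 to 44.1) and TFPI2 at 41.3 (39.3 to 42.3). Lower on the same scale were KLF6 at 18.3 (17.3 to 18.8), TFPI at 15.4 (14.7 to 16), KLF4 at 2.48 (2.26 to 2.7), KLF2 at 1.97 (1.88 to 2.09) and THBD at 1.89 (1.59 to 2.20). Libraries of neighbours in this order overlapped for PROCR and TFPI2 and for KLF2 and THBD, and not for the other neighbours.

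THBD (ENSG00000178726, chromosome 20, 23045633 to 23049741, minus strand, GRCh38) was higher at the highest dose of 5 of the 6 replicated extracts and flat with Cinnamomi Cortex. It stood at 7.76, 9.04 and 6.53 CPM in the vehicle libraries. At the high dose it was at 31.5, 31.8 and 33.6 CPM with Astragali Radix. The formulas gave 18, 17.1 and 18 with Palmul-tang, 16, 16.3 and 15.5 with Samul-tang, 15.6, 15.9 and 16.1 with Sibjeondaebo-tang and 15.7, 14.5 and 14.8 with Sagunja-tang. Cinnamomi Cortex gave 7.06, 7.04 and 6.46 CPM at the same concentration as the formulas. Every high-dose library of the 5 lay above every vehicle library, and the Cinnamomi Cortex libraries lay within the vehicle range except 1 just below it.

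Against the vehicle THBD rose 4.14-fold at the high dose of Astragali Radix (log2 2.05 ± 0.09, edgeR adjusted p = 4.33e-24) and 2.27-fold with Palmul-tang (1.18 ± 0.09, adjusted p = 1.31e-13). It rose 2.04-fold with Samul-tang (1.03 ± 0.09, adjusted p = 1.53e-11) and 2.04-fold with Sibjeondaebo-tang (1.03 ± 0.09, adjusted p = 8.69e-12). With Sagunja-tang it was 1.92-fold the vehicle (log2 0.94 ± 0.09), which is given without a test. In these bulk libraries, more cells with the transcript and more transcript per cell cannot be told apart. The larger part of the difference lay between the medium and the high dose. At the medium dose THBD was at 7.01, 5.96 and 7.4 CPM with Astragali Radix, 8.66, 8.46 and 9.06 with Palmul-tang, 9.51, 9.07 and 8.91 with Samul-tang, 8.69, 10.2 and 9.9 with Sibjeondaebo-tang and 7.58, 7.68 and 9.57 with Sagunja-tang, and the low-dose libraries of the 6 extracts lay between 6.36 and 9.3 CPM. The medium-dose libraries lay above all low-dose libraries with Sibjeondaebo-tang (low dose 7.37, 8.07 and 7.47 CPM) and Sagunja-tang (6.87, 7.39 and 6.66), and not with Palmul-tang, Astragali Radix or Cinnamomi Cortex. The same held with Samul-tang (low dose 7.7, 7.94 and 7.48 CPM). Its medium dose was not called against the vehicle (log2 0.23 ± 0.10, adjusted p = 0.106), but was without the 2 libraries that stood apart (0.0414) or without vehicle replicate 2 (0.0204). Of these medium doses, Sibjeondaebo-tang was called against the vehicle (log2 0.31 ± 0.10, adjusted p = 0.0496), with overlapping libraries. That call ended without vehicle replicate 3 (log2 0.20, adjusted p = 0.338), and without vehicle replicate 1 (0.134). It also ended without its own replicates 2 and 3 (0.215 and 0.142), with RLE scaling (0.0566), without the low-count filter (0.199) and with a replicate block (0.0522). In the other direction, the medium dose of Astragali Radix was not called (log2 -0.19 ± 0.10, edgeR adjusted p = 0.183). Without vehicle replicate 3 it was called below the vehicle (-0.30, 0.0461).

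From the low to the high dose THBD rose by log2 1.02 ± 0.05 per 5-fold dose step with Astragali Radix (adjusted p = 5.56e-24) and 0.58 ± 0.05 with Palmul-tang (adjusted p = 2.99e-13). The rise was 0.53 ± 0.05 with Sibjeondaebo-tang (adjusted p = 3.69e-12) and 0.52 ± 0.05 with Samul-tang (adjusted p = 2.94e-11), edgeR throughout. With Sagunja-tang, the value in view when the genes were chosen, it was 0.55 ± 0.05 per step, 2.15-fold between low and high dose. Cinnamomi Cortex gave 0.00 ± 0.05. No vehicle library enters these values. At the high dose no difference of THBD was called in the formula pairs without Sagunja-tang. Palmul-tang minus Samul-tang was log2 0.15 ± 0.09 (edgeR adjusted p = 0.601) and Sibjeondaebo-tang minus Palmul-tang -0.16 ± 0.09 (adjusted p = 0.316). Palmul-tang minus Sagunja-tang was 0.24 ± 0.09 and Sagunja-tang minus Samul-tang -0.09 ± 0.09, given as a description without a test. In comparisons added after the data were seen, Cinnamomi Cortex minus Palmul-tang was log2 -1.37 ± 0.09 (adjusted p = 3.92e-15), minus Samul-tang -1.22 ± 0.09 (adjusted p = 1.41e-13) and minus Sibjeondaebo-tang, which contains cinnamon bark by its recipe, -1.21 ± 0.09 (adjusted p = 9.34e-14), all at 500 µg/mL.

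PROCR (ENSG00000101000, chromosome 20, 35172073 to 35216240, plus strand), the receptor for protein C, was called with 1 extract in the fit of all libraries, Astragali Radix. It stood at 54.4, 59.5 and 59.3 CPM in the vehicle and at 76.5, 76.5 and 69.8 CPM at the high dose of Astragali Radix, where all 3 libraries lay above the vehicle. The medium dose gave 56.1, 55.9 and 53.6 CPM and the low dose 61.2, 61.2 and 53.6, and these overlapped the vehicle. PROCR rose 1.29-fold at the high dose (log2 0.36 ± 0.05, edgeR adjusted p = 6.50e-08) and by 0.17 ± 0.03 per dose step (adjusted p = 2.39e-07), the latter 0.27 with transcript length and GC content removed. With the other 5 extracts its libraries ranged from 47.2 to 61.8 CPM, and no difference from the vehicle was called in that fit. The low dose of Samul-tang was called lower by DESeq2 (adjusted p = 0.0452), with length and GC removed (0.0355) and without its replicate 1 (0.0375). Also called lower were its high dose with the 2 groups fitted by themselves (0.0441) and the low dose of Cinnamomi Cortex with length and GC removed (0.0349). The Sibjeondaebo-tang trend was called with its groups by themselves (0.0379) and with length and GC removed (0.0466). Without the 2 low-dose libraries that stood apart, the low dose of Samul-tang (log2 -0.13, adjusted p = 0.0309) and the trend with Sibjeondaebo-tang (0.06 per step, 0.0201) were called. THBD and PROCR, whose products act in 1 complex, thus both rose at the highest Astragali Radix dose, at sizes of 4.14-fold and 1.29-fold. At that dose 68.2% of all genes were called, so nothing about the complex is read from the 2 rises. The called rises of THBD with 3 formulas had no called counterpart in PROCR in the fit of all libraries.

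**Figure D1:**
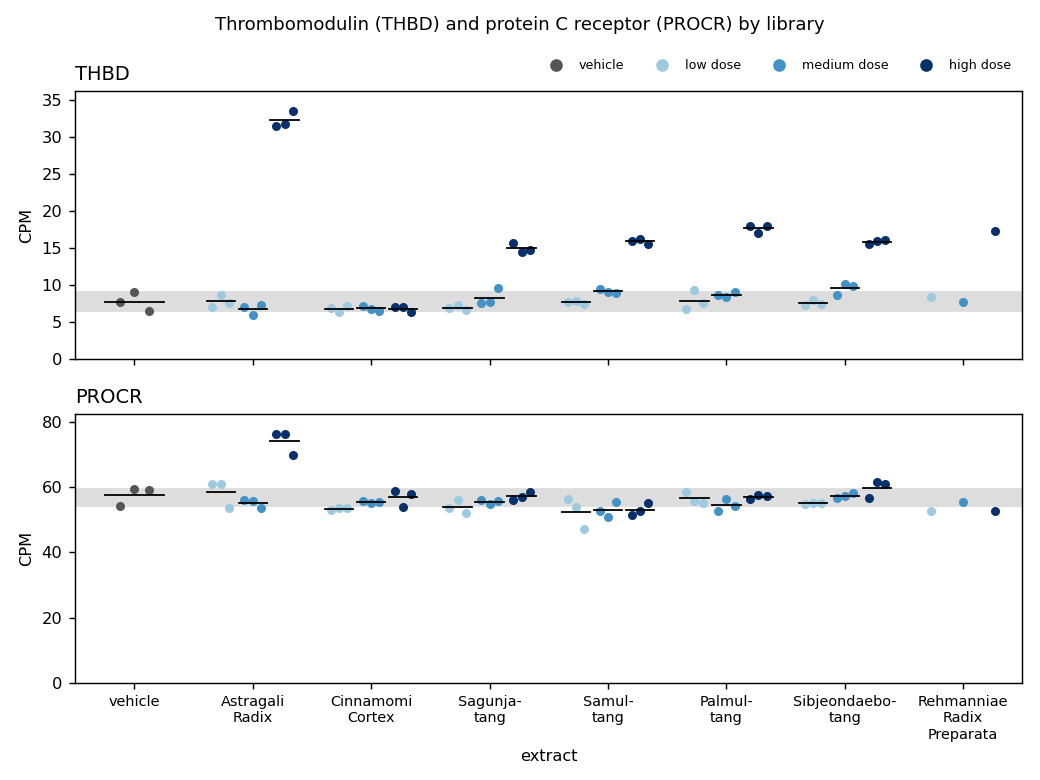
CPM of THBD and PROCR in every library, the single ones of Rehmanniae Radix Preparata included (points, light to dark for low to high dose; black bars are means of 3; the grey band is the vehicle range). THBD reaches 31.5 to 33.6 CPM at the high dose of Astragali Radix and about 14.5 to 18 CPM with the formulas, and PROCR leaves the vehicle range upward at the high dose of Astragali Radix.

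F3 (ENSG00000117525, chromosome 1, 94529225 to 94541800, minus strand), tissue factor, was the 1 member of the 8 that fell at the highest dose of Astragali Radix, and it rose at the medium dose. It was steady in the vehicle at 151, 151 and 151 CPM. Astragali Radix gave 77.4, 78.5 and 78.6 CPM at the high dose, 199.96, 203 and 207 at the medium dose and 185, 119 and 181 at the low dose. All high-dose libraries lay below the vehicle and all medium-dose libraries above it, while the low-dose libraries lay on both sides, with replicate 2, which stood apart, the lowest. F3 fell 1.93-fold at the high dose (log2 -0.95 ± 0.08, edgeR adjusted p = 2.97e-15) and rose by 0.43 ± 0.07 at the medium dose (adjusted p = 2.79e-05). High minus medium dose, a comparison added after the data were seen, was -1.38 ± 0.08 (adjusted p = 1.00e-20). The low dose was not called (log2 0.10 ± 0.07, adjusted p = 0.317), but without its replicate 2 it was 0.26 higher (adjusted p = 9.10e-06), and without replicates 1 and 2 0.27 higher (2.44e-04).

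F3 also fell with Sagunja-tang, at 114, 110.0 and 110.1 CPM at the high dose, 138, 139 and 148 at the medium dose and 156, 154 and 151 at the low dose. The 3 high-dose libraries lay below every vehicle library (log2 -0.44 ± 0.07, adjusted p = 1.33e-05), and per dose step the value was -0.23 ± 0.04. These high-dose libraries are the ones that entered the Sagunja-tang dose comparison in view when the genes were chosen, so the tests of F3, KLF4 and KLF6 that use them are not independent of that choice. Samul-tang went the other way with dose, from 132, 141 and 138 CPM at the low dose to 174, 164 and 169.5 at the high dose (log2 0.15 ± 0.04 per step, edgeR adjusted p = 0.0165), and lay above the vehicle at the high dose in all 3 libraries without a call (adjusted p = 0.122). It was called there without the 2 libraries that stood apart (2.67e-04) and with the 2 groups fitted by themselves (7.02e-04). Its low dose against the vehicle (log2 -0.14 ± 0.07, adjusted p = 0.234) was called below it without the 2 libraries (0.006995), with the 2 groups by themselves (0.00458) and with length and GC removed (0.00363). Palmul-tang, which joins the herbs of both, gave 146, 158 and 165 CPM at the high dose, around the vehicle. Sagunja-tang minus Samul-tang was log2 -0.60 ± 0.07 at 500 µg/mL (adjusted p = 1.43e-07). Palmul-tang was above Sagunja-tang by 0.49 ± 0.07 (adjusted p = 2.82e-05), and Palmul-tang minus Samul-tang was -0.12 ± 0.07 (adjusted p = 0.687, and 0.0481 without the 2 libraries that stood apart). Sibjeondaebo-tang gave 147, 148 and 158 CPM at the high and 133, 126 and 128 at the low dose, and Cinnamomi Cortex 153, 153 and 149 and 125, 127 and 134. At the low dose both lay below all vehicle libraries (log2 -0.23 ± 0.07, adjusted p = 0.0403, and -0.23 ± 0.07, adjusted p = 0.0295). F3 rose with dose of Sibjeondaebo-tang (0.11 ± 0.04 per step, adjusted p = 0.0213), and the trend of Cinnamomi Cortex of 0.12 ± 0.04 was not called (adjusted p = 0.243; 3.16e-05 without the 2 libraries). Without those libraries the medium dose of Cinnamomi Cortex was also called below the vehicle (log2 -0.14, adjusted p = 0.00305) and its high dose below that of Samul-tang (-0.16, 0.00290). Several of these smaller calls ended when 1 library was left out. This held for the low dose of Sibjeondaebo-tang without any 1 of its own (adjusted p from 0.0641 to 0.143) or any 1 vehicle library (0.0901 to 0.107). It held for the low dose of Cinnamomi Cortex without its replicate 1 or 2 (0.103 to 0.118) or any 1 vehicle library (0.0777 to 0.0870). The Samul-tang trend ended without high or low replicates 1 or 3 (0.0555 to 0.124), and the Sibjeondaebo-tang trend without high replicate 3 or low replicate 2 or 3 (0.0565 to 0.104). Both low-dose calls also ended without the low-count filter (0.0925 and 0.0712).

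The 2 inhibitors rose at the high dose of Astragali Radix, where F3 fell. At the high dose of Sagunja-tang, where F3 also fell, neither was called. TFPI was at log2 0.07 ± 0.08 there (edgeR adjusted p = 0.568) and TFPI2 at 0.00 ± 0.10 (adjusted p = 0.984), both overlapping the vehicle. TFPI (ENSG00000003436, chromosome 2, 187464230 to 187565760, minus strand) stood at 62.1, 60.7 and 57.1 CPM in the vehicle and at 118, 126 and 129 CPM at the high dose of Astragali Radix, and the groups did not overlap. It rose 2.07-fold (log2 1.05 ± 0.08, edgeR adjusted p = 7.44e-16) and by 0.66 ± 0.04 per dose step (adjusted p = 5.82e-19). At the medium dose TFPI was at 64.1, 60.7 and 60.8 CPM, around the vehicle. At the low dose it was at 57.1, 35.6 and 57.5 CPM, and the call there (log2 -0.26 ± 0.08, adjusted p = 0.00964) rested on replicate 2. Without it the value was -0.07 (adjusted p = 0.275). Without replicates 1 and 2 it was -0.05 (0.692). Without replicate 3 it was -0.39, with transcript length and GC content removed -0.13, and with the low dose and the vehicle fitted by themselves the adjusted p was 0.589. Palmul-tang at the high dose gave 69.6, 69.7 and 74.7 CPM, above every vehicle library (log2 0.25 ± 0.08, adjusted p = 0.0204; 0.16 with length and GC removed). This call ended without its replicate 3 (0.0857) or vehicle replicate 3 (0.0940). In the other high-dose groups TFPI libraries ranged from 60.2 to 70.3 CPM, with no call. Without the 2 libraries that stood apart, Samul-tang (log2 0.17, adjusted p = 9.97e-04), Sibjeondaebo-tang (0.14, 0.00703) and Cinnamomi Cortex (0.13, 0.0134) were called above the vehicle there. The same fit called the Palmul-tang trend (0.10 per step, 3.91e-04), and the high dose of Palmul-tang above those of Sagunja-tang (0.00324), Sibjeondaebo-tang (0.0332) and Cinnamomi Cortex (0.0369).

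TFPI2 (ENSG00000105825, chromosome 7, 93885396 to 93890991, minus strand) stood at 103, 103 and 96 CPM in the vehicle and 178, 172 and 152 CPM at the high dose of Astragali Radix, with no overlap. It rose 1.66-fold (log2 0.73 ± 0.10, adjusted p = 6.38e-09) and by 0.45 ± 0.05 per step (adjusted p = 2.75e-11), from low-dose values of 117, 59.4 and 91.5 CPM whose lowest was again replicate 2. With Sibjeondaebo-tang TFPI2 went from 93.3, 88.5 and 82.6 CPM at the low to 108, 116 and 111 at the high dose (0.17 ± 0.05 per step, edgeR adjusted p = 0.00799), the low-dose libraries lying below and the high-dose libraries above the vehicle. Smaller trends with Samul-tang (0.11 ± 0.05 per step), Palmul-tang (0.10 ± 0.05) and Cinnamomi Cortex (0.12 ± 0.05) were not called (adjusted p = 0.468, 0.352 and 0.595), but were without the 2 libraries that stood apart (6.24e-04, 3.84e-04 and 2.07e-04). Against the vehicle the same fit called the high doses of Sibjeondaebo-tang (log2 0.16, adjusted p = 0.00251), Palmul-tang (0.14, 0.00619) and Cinnamomi Cortex (0.13, 0.0163) higher. It called the low doses of Sibjeondaebo-tang (-0.19, 8.08e-04), Samul-tang (-0.18, 0.00124), Cinnamomi Cortex (-0.11, 0.0464) and Sagunja-tang (-0.11, 0.0453) lower. Genes on the opposite strand overlap TFPI, TFPI2 and PROCR, and none of them exceeded a mean of 0.075 CPM.

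**Figure D2:**
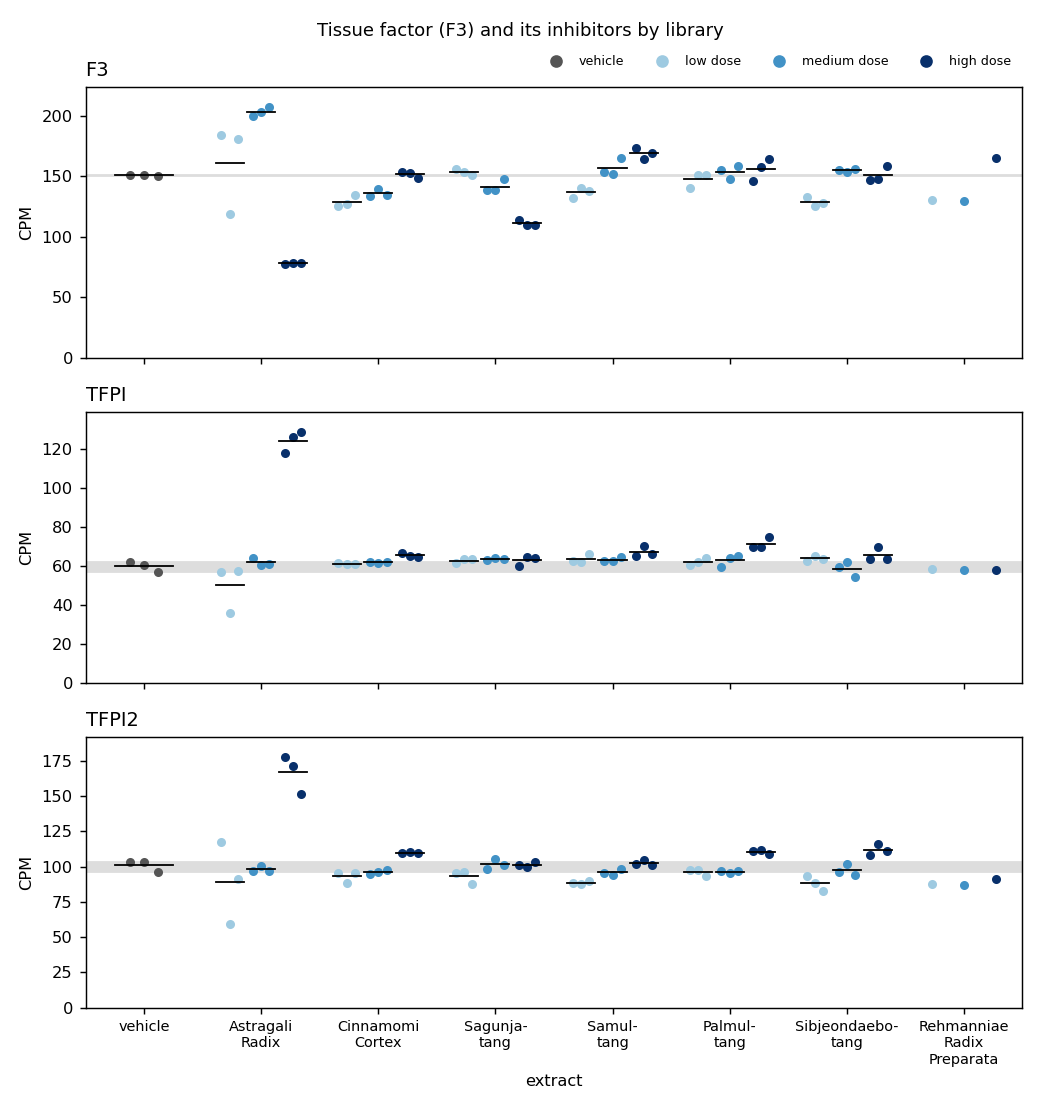
CPM of F3, TFPI and TFPI2 in every library, the single ones of Rehmanniae Radix Preparata included (points, light to dark for low to high dose; black bars are means of 3; the grey band is the vehicle range). At the high dose of Astragali Radix F3 sits at 77.4 to 78.6 CPM below the vehicle while TFPI and TFPI2 sit above it, and the high dose of Sagunja-tang holds F3 at 110.0 to 114 CPM.

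KLF4 (ENSG00000136826, chromosome 9, 107484852 to 107490482, minus strand) had the largest fold of the 8 genes. It stood at 7.59, 6.99 and 6.36 CPM in the vehicle, and with Astragali Radix at 68.4, 64 and 59.3 CPM at the high dose, 10.6, 10.1 and 10.4 at the medium dose and 8.05, 6.63 and 7.94 at the low dose. High and medium libraries all lay above the vehicle, and low-dose libraries overlapped it. KLF4 rose 9.15-fold at the high dose (log2 3.19 ± 0.09, edgeR adjusted p = 2.10e-32) and by 0.57 ± 0.09 at the medium dose (adjusted p = 5.59e-06), and by 1.54 ± 0.04 per dose step (adjusted p = 7.92e-32). The formulas gave values far closer to the vehicle. At the high dose KLF4 was at 9.62, 9.45 and 8.73 CPM with Sibjeondaebo-tang, 8.23, 8.92 and 9.1 with Palmul-tang, 8.38, 8.16 and 8.47 with Sagunja-tang, 7.6, 8.14 and 8.21 with Samul-tang and 7.62, 7.78 and 7.7 with Cinnamomi Cortex. The first 3 were called against the vehicle, at log2 0.41 ± 0.09 (adjusted p = 7.31e-04), 0.32 ± 0.09 (adjusted p = 0.00767) and 0.26 ± 0.09 (adjusted p = 0.0350), and Samul-tang was not (0.19 ± 0.09, adjusted p = 0.137). Per dose step the values were 0.23 ± 0.04 with Palmul-tang (adjusted p = 5.27e-04), 0.21 ± 0.04 with Sibjeondaebo-tang (adjusted p = 4.54e-04) and 0.21 ± 0.04 with Sagunja-tang, edgeR. The Sagunja-tang call ended without any 1 of its high-dose libraries (0.0535 to 0.0837), without vehicle replicate 2 or 3 (0.0743 to 0.181), with DESeq2 (0.0526) and without the low-count filter (0.196). The Palmul-tang call ended without vehicle replicate 3 (0.0644) or the filter (0.0656).

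KLF6 (ENSG00000067082, chromosome 10, 3775996 to 3785281, minus strand) followed the same order with Astragali Radix. It was at 87.8, 87.5 and 80.7 CPM in the vehicle and at 339, 318 and 308 CPM at the high, 104, 109 and 111 at the medium and 100.3, 81.6 and 94.1 at the low dose. It rose 3.77-fold at the high dose (log2 1.91 ± 0.05, adjusted p = 4.11e-33) and by 0.34 ± 0.05 at the medium dose (adjusted p = 1.15e-06), where all libraries lay above the vehicle, and by 0.90 ± 0.02 per step (adjusted p = 3.84e-32). The low dose was not called (log2 0.11 ± 0.05, adjusted p = 0.0711) but was without its replicates 1 and 2 (0.0311) and without replicate 2 by itself (0.18, 0.00109). At the high dose of Palmul-tang KLF6 was at 94.1, 97.7 and 92.8 CPM and of Sibjeondaebo-tang at 92.9, 98.6 and 91, above all vehicle libraries by log2 0.15 ± 0.05 (adjusted p = 0.0203) and 0.14 ± 0.05 (adjusted p = 0.0292). Sagunja-tang lay on the other side of the vehicle mean at 79.5, 81.3 and 78.4 CPM without a call (log2 -0.10 ± 0.05, adjusted p = 0.152). It was called below the vehicle with the 2 groups fitted by themselves (0.0440), with length and GC removed (0.0443) and without the 2 libraries that stood apart (0.0351). Palmul-tang was above Sagunja-tang by 0.25 ± 0.05 (edgeR adjusted p = 0.00165), so F3 and KLF6 were the members called in this formula pair, both higher with Palmul-tang. Sagunja-tang minus Samul-tang was -0.15 ± 0.05 (adjusted p = 0.0685, and 0.00136 without the 2 libraries that stood apart). Per dose step KLF6 rose by 0.11 ± 0.02 with Sibjeondaebo-tang (adjusted p = 0.00111) and 0.09 ± 0.02 with Palmul-tang (adjusted p = 0.0250). The Cinnamomi Cortex trend (0.08 ± 0.02 per step, adjusted p = 0.190) was called without the 2 libraries that stood apart (0.00369). Without vehicle replicate 3 the high-dose calls of Palmul-tang and Sibjeondaebo-tang ended (0.134 and 0.169), as they did without replicate 2 of each (0.0863 and 0.140). The Palmul-tang trend ended without high replicate 1 or 2 or low replicate 3 (0.0604 to 0.175). Without the low-count filter, these 4 calls and that of Palmul-tang against Sagunja-tang were lost (adjusted p = 0.293, 0.333, 0.559, 0.0683 and 0.209).

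KLF2 (ENSG00000127528, chromosome 19, 16324817 to 16327874, plus strand), a shear-responsive factor of endothelium, was the least precise of the 3, being at 3.8, 3.91 and 4.21 CPM in the vehicle. At the high dose of Astragali Radix it was at 9.29, 8.55 and 10.9 CPM, above all vehicle libraries, and it rose 2.4-fold (log2 1.27 ± 0.20, edgeR adjusted p = 3.63e-07). The medium dose gave 4.36, 2.92 and 3.77 CPM and the low dose 4.75, 7.06 and 3.03 CPM, on both sides of the vehicle, highest in replicate 2. Its dose trend of 0.48 ± 0.10 per step (adjusted p = 3.18e-05) was 0.82 without low replicates 1 and 2, where the 1 library left is taken to vary as much as other groups do. With the formulas no difference of KLF2 was called. At the high dose it was at 2.71, 2.6 and 3.03 CPM with Palmul-tang, 2.31, 2.73 and 3.84 with Samul-tang, 2.86, 3.81 and 4.39 with Sagunja-tang and 2.98, 3.66 and 3.68 with Sibjeondaebo-tang. The difference of Palmul-tang (log2 -0.52 ± 0.22, adjusted p = 0.0891) was called with the 2 groups fitted by themselves (0.00346), without the low-count filter (0.0290), without the 2 libraries that stood apart (0.0322) and with length and GC removed (0.0319).

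**Figure D3:**
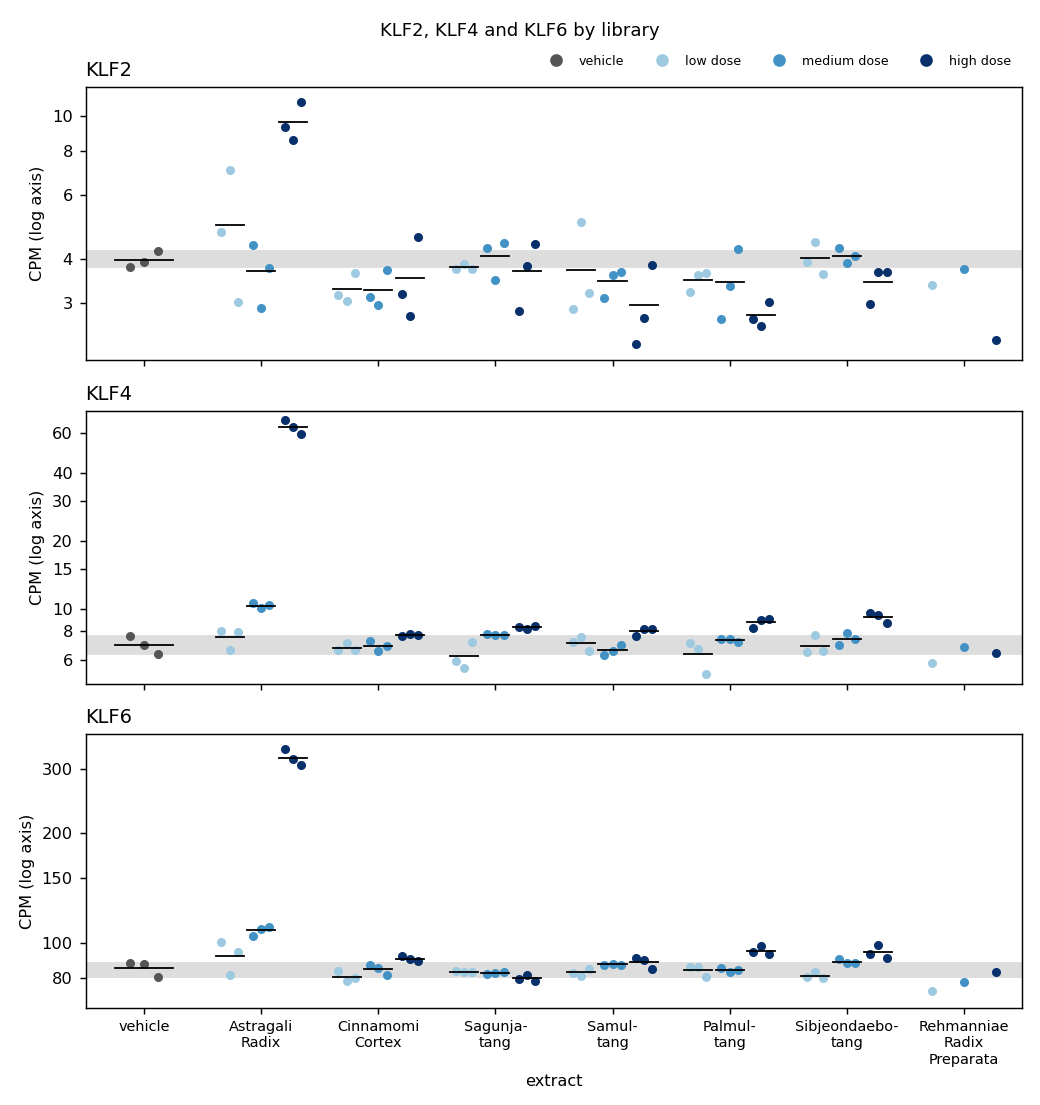
CPM of KLF2, KLF4 and KLF6 on a log axis in every library, the single ones of Rehmanniae Radix Preparata included (points, light to dark for low to high dose; black bars are means of 3; the grey band is the vehicle range). The high dose of Astragali Radix stands above the vehicle in all 3 genes, while the formulas stay near the vehicle band.

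Set beside all genes tested, the members' calls against the vehicle numbered 26 of 144 tests, and 44 without the 2 libraries that stood apart (39 without replicate 2 of the low dose of Astragali Radix by itself). With Astragali Radix 8 of 8 at the high dose (68.2% of all genes), 3 at the medium (16.6%) and 1 at the low dose (40.7%) were called. With Cinnamomi Cortex 0 of 8 at the high dose (16.2% of all genes), 0 at the medium (13.0%) and 1 at the low dose (13.2%) were called by edgeR. With Sagunja-tang 3 of 8 at the high dose (22.7% of all genes), 0 at the medium (13.5%) and 0 at the low dose (14.1%) were called by edgeR. These 3, and so the total of 26, include THBD, whose difference there is a description. Nothing is read from the Sagunja-tang count. With Samul-tang 1 of 8 at the high dose (19.6% of all genes), 0 at the medium (12.1%) and 0 at the low dose (11.3%) were called. Palmul-tang gave 4 of 8 at the high dose (20.3% of all genes), 0 at the medium (10.2%) and 0 at the low dose (9.84%), and Sibjeondaebo-tang 3 of 8 at the high dose (23.1% of all genes), 1 at the medium (5.76%) and 1 at the low dose (9.61%). Over all 11 comparisons of this and the following counts with 0 members called by edgeR, 88 tests, 9 had an unadjusted p below 0.05 and 2 were called by DESeq2. With 68.2% of all genes called at the high dose of Astragali Radix, nothing about the 8 as a group is read from their count. Shares of all genes, here and in the following counts, are those of adjusted p in the edgeR fit of all libraries. No such share was counted for the alternatives or for unadjusted p, so nothing is read from those counts.

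**Figure D4:**
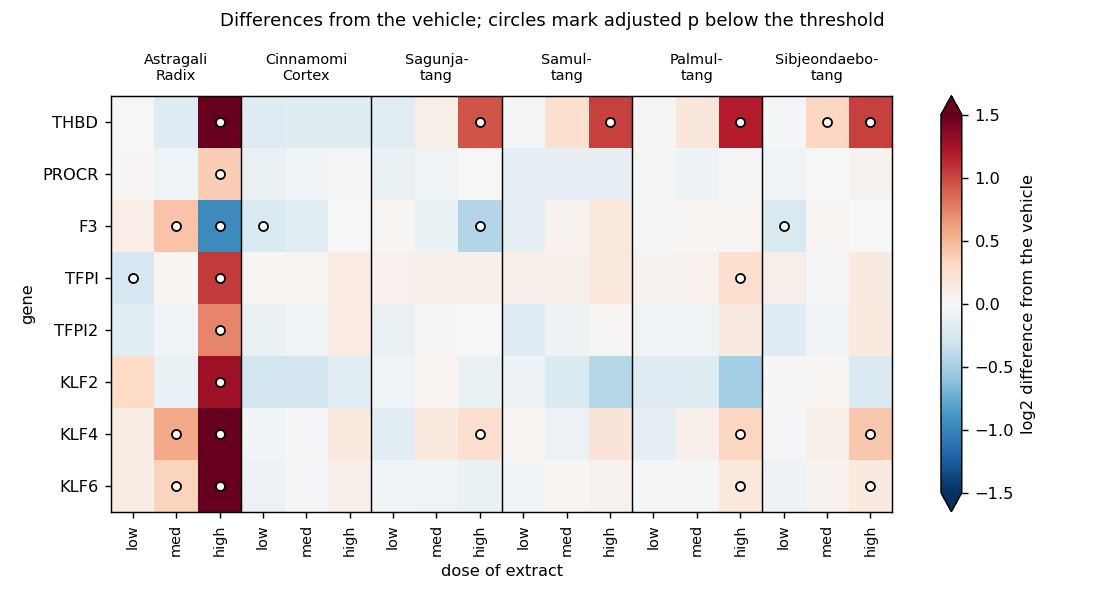
Log2 difference from the vehicle of the 8 genes (rows) in the 18 replicated extract and dose groups (columns), as colour limited at 1.5 either way, with circles on differences called at adjusted p below 0.05. The high dose of Astragali Radix is circled for all 8 genes, with F3 the 1 gene below the vehicle, and THBD is above the vehicle at the high dose of every formula. The circle of THBD at the high dose of Sagunja-tang is a description, not a test.

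With dose, where no vehicle library enters, 21 of 48 tests were called, and 28 without the 2 libraries that stood apart. These were 8 of 8 with Astragali Radix (70.0% of all genes), 5 with Sibjeondaebo-tang (21.3%) and 3 with Palmul-tang (3.68%). They were 2 with Samul-tang (1.41%), 3 with Sagunja-tang (3.78%) and 0 with Cinnamomi Cortex (0.441%, by edgeR). From the count with Sagunja-tang nothing is read, since the choice of genes used that comparison. THBD was called in 4 of the 5 other extracts, and KLF4 in 3, KLF6 in 3 and F3 in 3. The 5 Sibjeondaebo-tang calls were THBD, F3, TFPI2, KLF4 and KLF6, and all 5 were kept when trends on transcript length and GC content were removed. Differences at the high dose across the 4 formula pairs gave 3 calls in 32 tests, 8 without the 2 libraries that stood apart and 5 without replicate 2 of the low dose of Astragali Radix. The 3 were 1 of 8 for Sagunja-tang against Samul-tang (4.71% of all genes) and 2 for Palmul-tang against Sagunja-tang (0.916%). Where an alternative also brings THBD below the threshold in a pair with Sagunja-tang, that value is a description. By edgeR there were 0 for Palmul-tang against Samul-tang (1.69%) and 0 for Sibjeondaebo-tang against Palmul-tang (5.45%). Of the comparisons added after the data were seen, Cinnamomi Cortex at the high dose differed in 3 members from Sagunja-tang (2.93% of all genes), in 1 from Samul-tang (2.00%), in 1 from Palmul-tang (3.29%) and in 2 from Sibjeondaebo-tang (14.2%). THBD was among the called members against Samul-tang, Palmul-tang and Sibjeondaebo-tang. It is also 1 of the 3 against Sagunja-tang, where its difference is a description, and nothing is read from that count. The high dose of Astragali Radix differed from its medium dose in 8 of 8 (66.4% of all genes), THBD by log2 2.24 ± 0.09, KLF4 by 2.62 ± 0.08 and KLF6 by 1.57 ± 0.05.

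**Figure D5:**
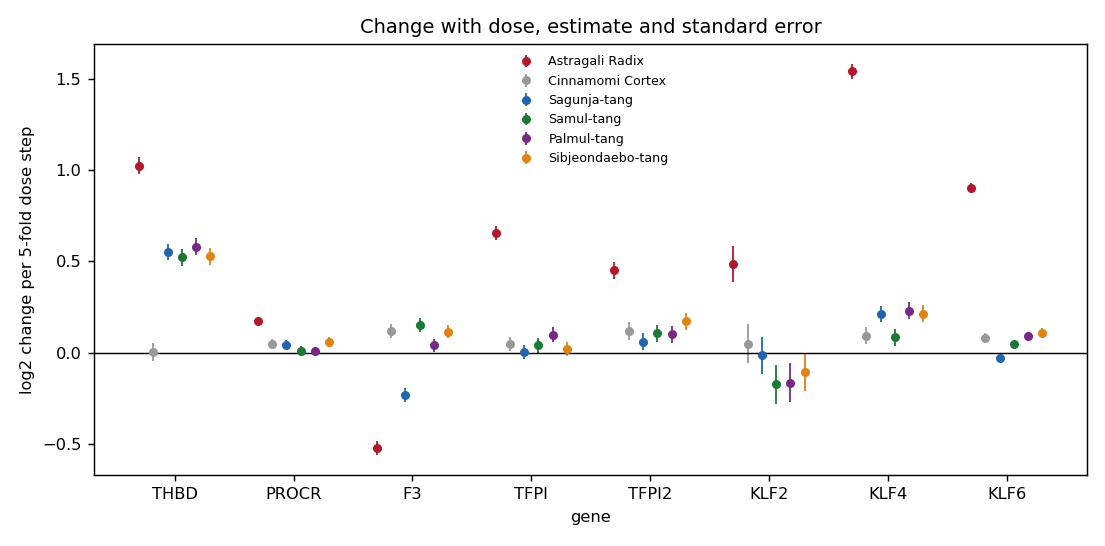
Log2 change per 5-fold dose step (± SE) of the 8 genes with each replicated extract, without any vehicle library. THBD has values between 0.52 and 0.58 with the 4 formulas, 1.02 with Astragali Radix and 0.00 with Cinnamomi Cortex, and F3 is below 0 with Astragali Radix and Sagunja-tang.

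Genes around the 8 in these pathways were counted from lists, and the median over all genes was -0.06 on the log2 scale at the high dose of Astragali Radix and between 0.00 and 0.01 at that of the others (68.2%, 16.2%, 22.7%, 19.6%, 20.3% and 23.1% of all genes called). Of the ERK5 and MEF2 genes, which act upstream of KLF2 and KLF4 in endothelium, 6 of 9 rose and 2 fell at the high dose of Astragali Radix (median log2 0.49). Among them were MEF2A (1.31 ± 0.09), MEF2D (1.15 ± 0.08), HDAC5 (1.68 ± 0.15) and MAPK7, which encodes ERK5 (0.59 ± 0.07). The list does not separate activators from restraining members such as HDAC5, so its count gives no direction of pathway activity. With the other 5 extracts none rose and 4 or 5 fell, MAPK7 by 0.22 to 0.37 and MEF2D by 0.29 to 0.37. Of 11 tested other KLF genes, of 14 listed, 8 rose and 2 fell at the high dose of Astragali Radix (median 1.3). KLF5, a growth-related factor, went from 39.7 to 154 CPM (log2 1.96 ± 0.06), and fell by 0.56 to 0.80 at the high doses of the other extracts. KLF11 rose by 2.73 ± 0.10, KLF13 by 1.73 ± 0.09 and KLF3 by 1.3 ± 0.08. The 6 tested of 9 targets of KLF2 and KLF4 in endothelium had 0 rises and 4 falls at that dose, and 1 rise with length and GC removed or without the 2 libraries that stood apart. The list includes inflammatory genes, which these factors restrain in endothelium, so its rises and falls have no single expected direction. CCL2, a chemokine, went from 41.3 to 2.1 CPM (log2 -4.29 ± 0.20). VCAM1, an adhesion molecule, fell by 2.48 ± 0.30 and EDN1, endothelin, by 0.46 ± 0.19.

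Of the 8 factors known to act on the F3 promoter 6 rose and 1 fell at the high dose of Astragali Radix (median 0.66), where F3 fell: FOS by 2.89 ± 0.17, FOSL1 by 0.87 ± 0.07, RELA by 0.85 ± 0.04 and EGR1 by 0.40 ± 0.07 on the log2 scale. With the other 5 extracts EGR1 rose by 0.48 to 0.94, FOSL1 fell by 0.58 to 0.85 and RELA by 0.21 to 0.36. The same limit of the label code holds for these and the following differences from the vehicle. Of the plasminogen system, which dissolves clots, 7 of 10 genes were tested, and 2 rose and 4 fell at the high dose of Astragali Radix (4 and 4 without the 2 libraries that stood apart). PLAT fell by 1.59 ± 0.05 and PLAU by 1.33 ± 0.07, and PLAUR, the receptor of the PLAU product, rose by 1.49 ± 0.07. At the high doses of the other extracts 0 of 7 rose, and 6 fell with Cinnamomi Cortex and Sagunja-tang, 5 with Samul-tang and Palmul-tang and 4 with Sibjeondaebo-tang. The thrombin and protein C list had 7 tested of 12, 3 higher and 4 lower with Astragali Radix, among them SERPINE2, a thrombin inhibitor (0.69 ± 0.05), and GAS6 (-0.48 ± 0.15). Coagulation factors were tested in 4 of 16 and 1 rose at that dose, FGG, a fibrinogen chain (0.33 ± 0.11).

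Genes whose levels varied most like each member were sought over 16 group means, the vehicle and the 15 groups outside Astragali Radix, which share libraries in a common fit and carry no p. For THBD they were NAMPT (r = 0.97, and 0.81 over 19 groups), CARS1 (r = 0.94, and 0.80 over 19 groups) and GCLC (r = 0.94, and 0.77 over 19 groups), GCLC encoding the catalytic part of the enzyme for the first step to glutathione. For KLF4 they were SPP1 (r = 0.93, and 0.99 over 19 groups), AGTRAP (r = 0.93, and 0.72 over 19 groups) and GSR (r = 0.92, and 0.97 over 19 groups), GSR encoding glutathione reductase. For F3 they were BRD9 (r = 0.85, and 0.61 over 19 groups), SLC20A2 (r = 0.82, and -0.43 over 19 groups) and GNB1L (r = 0.81, and -0.19 over 19 groups), so the pattern of F3 outside Astragali Radix was not kept by 2 of these 3 genes when its groups were added. For KLF6 they were PTX3 (r = 0.91, and 0.89 over 19 groups), PANX1 (r = 0.90, and 0.71 over 19 groups) and DUSP4 (r = 0.89, and 0.53 over 19 groups). PROCR varied most like ATRAID (r = 0.90, and 0.97 over 19 groups), TIGD5 (r = 0.89, and 0.31 over 19 groups) and TSKU (r = 0.89, and 0.92 over 19 groups), and TFPI2 like ANGPTL4 (r = 0.93, and 0.73 over 19 groups), PLIN2 (r = 0.90, and 0.95 over 19 groups) and SLC20A1 (r = 0.89, and 0.76 over 19 groups). PLIN2 encodes a coat protein of lipid droplets. TFPI varied most like LRP8 (r = 0.86, and -0.68 over 19 groups), SGSH (r = 0.84, and 0.49 over 19 groups) and USP40 (r = 0.83, and -0.25 over 19 groups), and KLF2 like SMARCC1 (r = 0.86, and -0.05 over 19 groups), TRNP1 (r = 0.85, and 0.40 over 19 groups) and ASF1B (r = 0.84, and -0.65 over 19 groups). Among the members THBD and KLF4 had r = 0.81 over 16 groups and 0.74 over 19, THBD and KLF2 -0.50 and 0.42, THBD and F3 0.14 and -0.54, and KLF4 and KLF6 0.57 and 0.98. The single Rehmanniae Radix Preparata libraries, with no replicate and no test, gave THBD at 17.3 CPM at the high, 7.77 at the medium and 8.36 at the low dose, the first 2.22-fold the vehicle mean and in the range of the formulas' high doses (14.5 to 18 CPM). F3 was at 165, 129 and 130.4 CPM, against 151, 151 and 151 in the vehicle. KLF4 at 6.39 and KLF6 at 83 CPM at the high dose lay within the vehicle range, as did TFPI at 57.9. KLF2 at 2.37, TFPI2 at 91.5 and PROCR at 52.7 CPM at that dose lay below all 3 vehicle libraries.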

How the data were processed

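The deposited table holds expected counts that the authors estimated with RSEM 1.3.3 after Trim Galore 0.6.5 and STAR 2.7.3a, with FastQC 0.11.9 for quality, per the submitters' processing notes. Reads were 100 bp pairs from a directional kit, per the labels' protocols, and the strand setting of the counting is not given in the sources used here. The 60 columns of these libraries were used, and the remaining 219 columns were left aside at every step. Values were rounded to whole counts (90.8% already whole within 1e-09). The 57 libraries in groups of 3 were fitted together with edgeR 4.0.16 (TMM scaling, filterByExpr, quasi-likelihood F test, 1 mean per group, R 4.3.3, limma 3.58.1), with Benjamini-Hochberg adjustment over 17676 genes and calls below 0.05. SE is the log2 difference divided by the square root of F. The dose trend is high minus low divided by 2. The labels give 0.1% DMSO in the vehicle and the series text another share.

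The members and lists were chosen with earlier results of these data known. The genes named are the 8 members, up to 4 genes of each list with the smallest adjusted p in any high-dose or dose comparison, and for each member the 3 genes of at least 5 mean CPM with the highest Pearson r over 16 groups. A gene that this rule names is not reported here. Positions come from GENCODE 29 on GRCh38. The scripts were tested on simulated data. Alternatives were DESeq2 1.42.0, RLE scaling, no low-count filter, only the groups compared, a replicate block, removal of trends on length and GC content with splines, leaving out each library, and leaving out Astragali Radix low replicates 1 and 2. The comparisons of Cinnamomi Cortex with the formulas and of the high with the medium dose of Astragali Radix were added after the data were seen.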

Additional observations from a re-analysis of the deposited data

Results flagged for a closer look

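Differences between extracts at the high dose that passed edgeR's test of the difference itself were, for F3, Sagunja-tang minus Samul-tang (log2 -0.60), Palmul-tang minus Sagunja-tang (0.49) and Cinnamomi Cortex minus Sagunja-tang (0.45). For KLF6 they were Palmul-tang minus Sagunja-tang (0.25) and Cinnamomi Cortex minus Sagunja-tang (0.18), the latter lost without the low-count filter (adjusted p = 0.612). The latter was also lost without any 1 Cinnamomi Cortex library (0.0523 to 0.125) or without Sagunja-tang replicate 1 or 3 (0.0885 and 0.132). For THBD, Cinnamomi Cortex was lower than Samul-tang (-1.22), Palmul-tang (-1.37) and Sibjeondaebo-tang (-1.21), and lay -1.13 from Sagunja-tang, given as a description. KLF4 was lower with Cinnamomi Cortex than with Sibjeondaebo-tang (-0.27), a call lost without the low-count filter (0.194). That call was also lost without any 1 Cinnamomi Cortex library (0.077 to 0.0981) or without Sibjeondaebo-tang replicate 1 or 2 (0.124 and 0.0868). Apart from Sagunja-tang minus Samul-tang, these pairs cross the label code described above, and extract and code cannot be told apart in them.

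The high-dose library of Rehmanniae Radix Preparata, 1 library outside the tests, had THBD at 17.3 CPM and F3 at 165 CPM, each above all 3 vehicle libraries. It has no replicate, and no cause was tested for any of these values.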

How the results depend on the processing

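No value of a member changed direction among those called. Against the vehicle 26 of 144 tests were called, and 43 with trends on transcript length and GC content removed, 44 without Astragali Radix low replicates 1 and 2 (which leaves 1 library, taken to vary as other groups do) and 41 with only the groups compared. Between formulas the 3 calls of 32 became 8 without those 2 libraries and 7 with only the groups compared. The share of all genes called was counted only in the fit of all libraries. Whether the members gained calls beyond all genes is therefore not known, and the cause was not tested. The 21 calls with dose ranged from 19 to 28 over all alternatives. Leaving out each library in turn gave 19 to 39 calls against the vehicle, 20 to 28 with dose, 3 to 5 between formulas (5 without Astragali Radix low replicate 2) and 296 to 420 over the pathway lists (346 in the fit of all libraries). Of 50 calls over these 3 families, 40 were kept without the low-count filter, 50 with length and GC removed and 49 under each of RLE scaling, DESeq2, only the groups compared and the fit without the 2 libraries.

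The replicate numbers did not pair the libraries: deviations of the same number had a median correlation of 0.0092 (-0.142 to 0.127), and of other numbers -0.0049. With a replicate block the calls were 25 against the vehicle, 21 with dose, 3 between formulas and 349 over the lists, and 49 of 50 calls were shared, the lost one being THBD at the medium dose of Sibjeondaebo-tang. Depth limits KLF2 most, with 55 counts in its lowest library, then KLF4 (138) and THBD (149).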
